A study of Caenorhabditis elegans with 2 samples.

Results

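The regions described here are the VAB-15 chromatin immunoprecipitation (ChIP-seq) regions of Caenorhabditis elegans whose summit lay within 1000 bp of a nuclear tRNA gene. They were found by position alone, without use of their signal, and numbered 524 of the 30000 regions in the authors' pooled list. All came from 1 strain, XIL99, whose vab-15 gene carried a CRISPR insertion, so that VAB-15 ended in GFP-FLAG. Whole L1 larvae of mixed sex, starved after bleaching, were used; chromatin was sonicated and an anti-GFP antibody pulled down the tagged protein. There was 1 group of 2 biological replicates, both tagged and both starved, so no condition was compared and control libraries were not analysed here. Chromatin of all cell types was pooled, so few cells with strong binding and many with weak binding cannot be told apart. The depth is unknown, since the lists carry no read counts.

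The protein is an Msx-type homeodomain factor known for its part in the development of touch receptor neurons. tRNA genes are short and are transcribed by RNA polymerase III, whose assembly factor TFIIIC binds the A box and the B box inside the gene itself. A run of T after the gene ends transcription. The worm genome holds many scattered copies of most tRNA genes, a large part of them on the X chromosome and many of them within introns of protein-coding genes.

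The strongest region and the ninth strongest lay over a pair of tRNA-Leu genes, C04A11.t1 (chrX:13665555-13665673, plus strand) and C14B9.t2 (chrIII:8109603-8109724, plus strand). These 2 sequences, shown because the summit fell inside them, were equal over 40 bases from the 5′ end and 53 bases to the 3′ end and differed between. The other 3 genes stand in places 3, 7 and 10 by signal. Stronger ones were passed over where the sequence also occurs on a chromosome left out of the sequence display, or where the summit lay farther than 200 bp away. The 3 are tRNA-Arg C18A11.t2 (chrX:8036685-8036757, minus strand), tRNA-Pro F46G11.t2 (chrX:5801211-5801282, minus strand) and tRNA-Thr F14F7.t1 (chrIII:13016107-13016178, minus strand). Each is read 5′ to 3′ along the tRNA on ce11, from the RefSeq genome. Capitals mark the A box letters GCNNAGT and the B box letters GTTCGANNC where those letters were present.
C04A11.t1: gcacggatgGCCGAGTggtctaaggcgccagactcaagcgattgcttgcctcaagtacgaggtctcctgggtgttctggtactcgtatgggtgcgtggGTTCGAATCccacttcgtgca
C18A11.t2: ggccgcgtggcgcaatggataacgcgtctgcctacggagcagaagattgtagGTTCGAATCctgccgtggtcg
F46G11.t2: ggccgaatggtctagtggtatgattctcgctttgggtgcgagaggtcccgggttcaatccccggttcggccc
C14B9.t2: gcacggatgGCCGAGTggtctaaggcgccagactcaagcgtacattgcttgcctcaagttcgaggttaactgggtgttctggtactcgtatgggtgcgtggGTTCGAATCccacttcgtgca
F14F7.t1: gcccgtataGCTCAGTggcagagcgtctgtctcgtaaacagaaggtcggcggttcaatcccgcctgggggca

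The bases around the same 5 summits, 50 to each side on the plus strand, show where the summit fell. Capitals mark bases of the tRNA gene, so the windows at C04A11.t1 (chrX:13665544-13665644) and C14B9.t2 (chrIII:8109586-8109686) open with the flank and run into the gene. The other 3 windows, at C18A11.t2 (chrX:8036437-8036537), F46G11.t2 (chrX:5801327-5801427) and F14F7.t1 (chrIII:13015899-13015999), held no base of the tRNA gene.
C04A11.t1: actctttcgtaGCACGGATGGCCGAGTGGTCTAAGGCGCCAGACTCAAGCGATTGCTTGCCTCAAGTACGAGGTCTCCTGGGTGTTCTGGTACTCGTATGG
C18A11.t2: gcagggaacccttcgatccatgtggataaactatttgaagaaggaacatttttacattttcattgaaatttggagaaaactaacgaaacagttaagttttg
F46G11.t2: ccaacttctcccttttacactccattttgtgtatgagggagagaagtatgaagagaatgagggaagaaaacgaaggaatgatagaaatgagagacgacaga
C14B9.t2: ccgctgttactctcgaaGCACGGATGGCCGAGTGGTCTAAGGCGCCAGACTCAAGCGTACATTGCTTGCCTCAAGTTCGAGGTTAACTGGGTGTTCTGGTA
F14F7.t1: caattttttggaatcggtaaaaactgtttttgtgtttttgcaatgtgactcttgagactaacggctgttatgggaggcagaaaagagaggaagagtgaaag
The TAATTG core of homeodomain sites was in none of these windows on either strand.

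Summits crowded onto the tRNA genes. The authors' value per region, called signal here, was used only within a list, where rank 1 is the strongest region. Inside the genes, which cover 45.8 kb, lay 107 summits, or 2.33 per kb. The adjoining 200 bp on each side held 192 summits at 0.845 per kb. Beyond 200 and up to 500 bp the density was 0.288 per kb, and beyond 500 and up to 1000 bp it was 0.301 per kb, next to 0.297 per kb in the genome farther away. In both replicate lists the gene and the adjoining 200 bp also came first, while the order of the farther bands differed between lists. Inside the genes replicate 1 held 2.07 and replicate 2 held 1.77 summits per kb, and farther than 1000 bp each held 0.297.

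The strongest of these regions were also the closest to a tRNA gene. The authors' optimal set, made with the irreproducible discovery rate (IDR) from both replicates, held 3.30% of all pooled regions, namely the 990 strongest. It held 35 of the 524 regions near tRNA genes (6.68%, exact Clopper-Pearson 95% interval 4.70 to 9.17). With the summit inside the gene the share was 19 of 107 (17.8%, interval 11.0 to 26.3). At 1 to 200 bp it was 13 of 192 (6.77%, interval 3.65 to 11.3), and beyond 500 bp 3 of 139 (2.16%, interval 0.447 to 6.18). Beyond 200 and up to 500 bp it was 0 of 86, which allows a share of up to 3.49% by the limit of 3 counts and 4.20% by the exact interval. The median signal went the same way, at 67.7 inside, 56.3 at 1 to 200 bp, 42.8 beyond 200 and up to 500 bp and 39.4 beyond 500 bp, beside 41.6 over all pooled regions. At the very top of the list the share of the 524 as a whole was near that of the list. Among the strongest 495 regions, 1.65% of the list, there were 9 of the 524 (1.72%, interval 0.788 to 3.24). Within 200 bp it was 8 of 299 (2.68%, interval 1.16 to 5.2), and with the summit inside 4 of 107 (3.74%, interval 1.03 to 9.30). These closer shares were above 1.65%, but their intervals included it. Among the strongest 1980, 6.60% of the list, there were 88 of the 524 (16.8%, interval 13.7 to 20.3). The regions beyond 200 bp, 225 in number, had a median of 39.7 and were not above the list as a whole. These intervals cover counting error over regions only. Regions are not replicates, and with 1 group no test between conditions could be made.

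**Figure D1:**
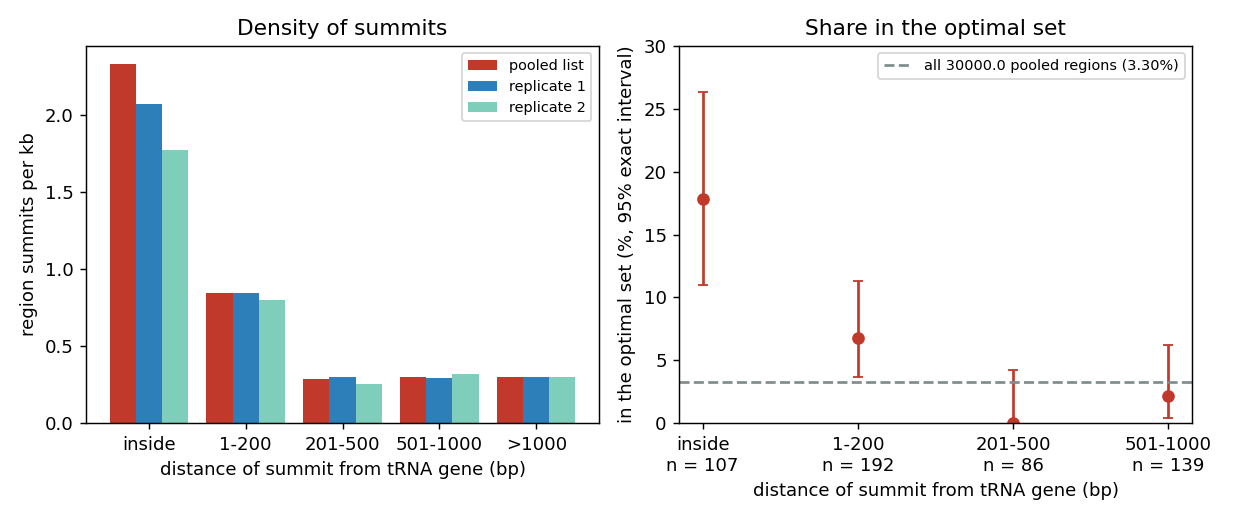
Left, region summits per kb of sequence by distance from the nearest tRNA gene, for the pooled list and each replicate list. Right, the share of pooled regions in the optimal set by the same distance, with exact 95% intervals; the dashed line is the 3.30% of all 30000 pooled regions. Density is 2.33 per kb inside the genes and 0.288 per kb beyond 200 and up to 500 bp, and the optimal share is 17.8% inside.

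Read in the direction of the tRNA gene, the strong summits lay mostly over the gene itself. Over the 299 regions within 200 bp the summit lay at a median of 36 bp from the 5′ end, with quartiles at -26.5 and 128 bp, and tRNA genes have a median length of 72 bp. The 32 optimal regions among them had the same median of 36 bp and narrower quartiles of 11.2 and 49.0 bp. Outside the gene neither side stood apart in the optimal set, with 7 of 96 regions within 200 bp on the 5′ side and 6 of 96 on the 3′ side. By the authors' deposited q-value, at or under 0.01 in 7.20% of all pooled regions, 26 of the 96 on the 5′ side passed and 15 of the 96 on the 3′ side. In all 93 of the 524 regions passed this q (17.7%), and 38 of the 107 with the summit inside (35.5%). The 2161 regions of the list that passed this q were also its 2161 strongest by signal, so the q is a looser threshold on the same ranking and no separate evidence.

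**Figure D2:**
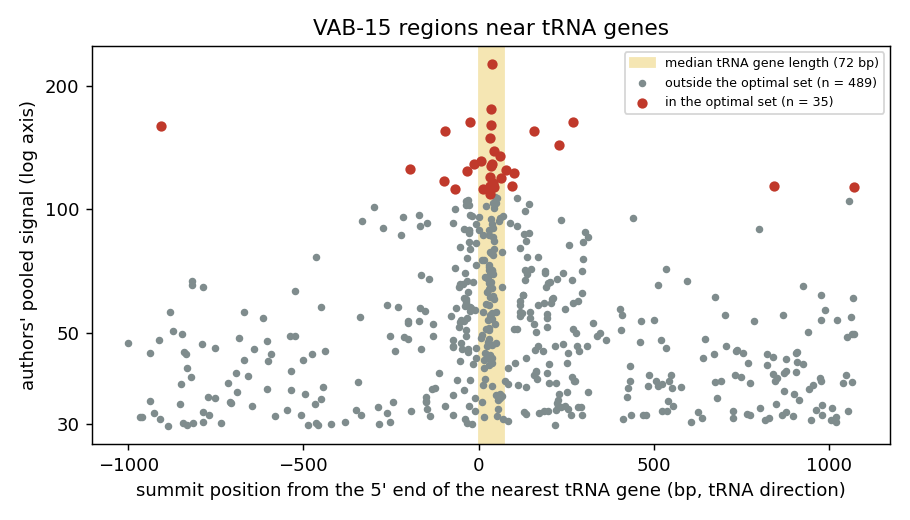
The authors' pooled signal (log axis) of the 524 regions against the position of the summit from the 5′ end of the nearest tRNA gene, in the direction of the gene. Red points are the 35 regions of the optimal set, grey points the other 489; the band spans the median gene length of 72 bp, and 32 of the red points lie within 200 bp of a gene.

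The 20 strongest regions had pooled signals of 123 to 226. Of these, 19 had their summit within 200 bp of a tRNA gene and 9 inside it, 15 had no annotated start site (TSS) of a protein-coding transcript within 1000 bp, and 8 lay on chromosome X. The strongest, at C04A11.t1 (chrX:13665406-13665781), had a signal of 226 in the pooled list, 141 in replicate 1 and 71.3 in replicate 2. It ranked 130 of 30000 in the pooled list, 199 in replicate 1 and 135 in replicate 2, the best rank of these 20 regions in each. Its summit lay inside the gene, and the nearest TSS was 1005 bp away.

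The next regions by signal also lay on X. At the tRNA-Lys gene W03G11.t1 the summit was inside the gene, and the signal was 176 in the pooled list, 120 in replicate 1 and 53.3 in replicate 2. Near the tRNA-Arg gene C18A11.t2 the summit lay 198 bp to the 3′ side, with signals of 163, 125 and 59.4 in the same order. At the tRNA-Ile gene C42D8.t1 it lay 24 bp to the 5′ side, with signals of 163, 112 and 37.2. The first 3 of these 4 ranked within the strongest 990 of both replicates, while C42D8.t1 ranked 369 in replicate 1 and 1171 in replicate 2.

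Other strong regions sat within protein-coding genes. The summit inside the tRNA-Ile gene T21B4.t1 (signal 161) lay in an intron of the collagen gene col-85, 318 bp from its TSS, with 117 in replicate 1 and 41.4 in replicate 2. The summit inside the tRNA-Asp gene F38G1.t2 (signal 138) lay in an intron of egl-17, which encodes a fibroblast growth factor ligand, 122 bp from the TSS, with 106 in replicate 1 and 38.1 in replicate 2. The summit inside the tRNA-Leu gene C14B9.t2 (signal 149) lay in an intron of C14B9.3, with 109 in replicate 1 and 40.9 in replicate 2. Signals in replicate 2 were below those in replicate 1 at each of these, as they were in the median over each whole list (30.2 in replicate 1 and 17.2 in replicate 2). Those inside F15B9.t1 (tRNA-Ala, signal 135), ZC455.t1 (tRNA-Ser, 131) and F33G12.t1 (tRNA-Ile, 128) were likewise intronic, in inft-2, ZC455.1 and F33G12.3. The region 85 bp from the tRNA-Lys gene K08E7.t1 (signal 155) had its summit in an exon of pgp-1, a P-glycoprotein transporter gene, with 120 in replicate 1 and 41.7 in replicate 2. Near the tRNA-Lys gene ZK994.t2 (signal 160) the summit lay 905 bp away in an intron of pxn-1, a peroxidasin gene, and it alone of the strongest 20 was farther than 200 bp.

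The remaining regions of the strongest 20 all lay within 200 bp of a tRNA gene. The summit of one region lay 95 bp from F46G11.t2 and also within 200 bp of F46G11.t1, 2 tRNA-Pro genes (signal 155). Another lay 13 bp from C53C7.t1 and within 200 bp of C53C7.t2, both tRNA-Ser genes (signal 129). The summit at the tRNA-Lys gene C33G3.t2 (signal 129) was inside it. Those at F14F7.t1 (tRNA-Thr, signal 143), C15C6.t1 (tRNA-Arg, 125), Y39B6A.t9 (tRNA-Phe, 124) and T15B12.t1 (tRNA-Met, 123) lay 158, 6, 32 and 29 bp away. At F47G6.t1 (tRNA-Arg, 125) the summit lay 195 bp away in an exon of spe-15, a myosin gene.

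At the border of the optimal set the values ran on without a gap. The last regions inside it were those of C28G1.t1 (tRNA-Glu, signal 112, pooled rank 917) and T23F1.t2 (tRNA-Pro, 109, rank 972). The next outside it were F10C1.t2 (tRNA-Leu, signal 107, rank 1017), in an intron of dmd-5, a doublesex-type factor gene, and ZK507.t1 (tRNA-Asn, 107, rank 1026). The lowest signal near a tRNA gene was 29.6.

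Optimal regions near tRNA genes occurred with and without a protein-coding start nearby. Of the 35 optimal regions, 23 had no TSS within 1000 bp (65.7%), beside 317 of all 524 (60.5%). Over the whole list, 300 of all 990 optimal regions and 15792 of all 30000 regions had none within 1000 bp. With 2000 bp, 12 of the 35 optimal regions near tRNA genes had none (34.3%), beside 190 of the 524 (36.3%). Within 200 bp of a tRNA gene, 21 of 190 regions without a TSS nearby were in the optimal set (11.1%, interval 6.97 to 16.4) and 11 of 109 with one (10.1%, interval 5.15 to 17.3). Over the whole list the share was higher near starts, with 1.90% of 15792 regions without a TSS and 4.86% of 14208 with one. Beyond 200 bp from the tRNA gene, 2 of 127 regions without a TSS and 1 of 98 with one were in the set.

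By annotation class, in introns 11 of 90 regions within 200 bp of a tRNA gene were optimal (12.2%, interval 6.26 to 20.8), next to 1.93% of all 6698 intronic regions (interval 1.61 to 2.28). In exons, coding or untranslated, it was 3 of 46 (6.52%, interval 1.37 to 17.9) next to 0.357% of 9520. Outside genes or in noncoding genes it was 12 of 95 (12.6%, interval 6.70 to 21.0) next to 3.49% of 5552 (interval 3.03 to 4.01). In promoters, 1 to 1000 bp upstream of a TSS, it was 6 of 68 (8.82%, interval 3.31 to 18.2) next to 7.69% of 8230 (interval 7.12 to 8.29). Within 200 bp the share was thus closest to that of its class in promoters. These intervals cover counting error over regions only, and each class includes its regions near tRNA genes. Over all regions within 1000 bp of a tRNA gene, the promoter share was 7 of 121 (5.79%), below that of the class. The other shares were 8.63% in introns, 3.39% in exons and 8.22% outside genes or in noncoding genes, each above its class. Regions within 1000 bp of snRNA or snoRNA genes, a further group of noncoding genes, were optimal in 64 of 518 cases (12.4%, interval 9.65 to 15.5). At that same distance of 1000 bp the share near tRNA genes was lower, at 35 of 524 (6.68%, interval 4.70 to 9.17). The median signal was 49.0 near snRNA or snoRNA genes and 48.4 near tRNA genes.

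**Figure D3:**
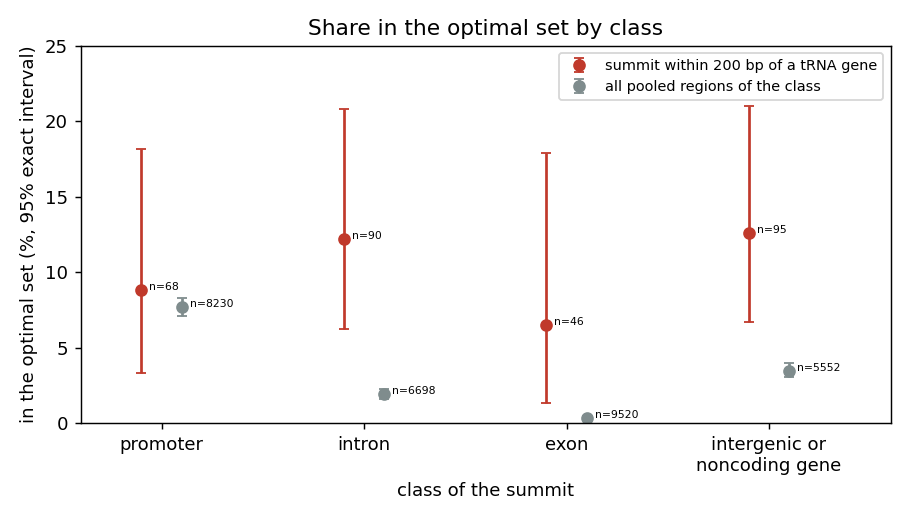
Share of regions in the optimal set by the class of the summit, for regions within 200 bp of a tRNA gene (red) and for all pooled regions of the class (grey), with exact 95% intervals and the number of regions beside each point. The red shares run from 6.52% to 12.6%, and the grey ones from 0.357% in exons to 7.69% in promoters.

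Both replicates held every optimal region near a tRNA gene, though the ranks differed. The optimal set was made from both replicates, so this presence is no separate evidence. All 35 pooled summits fell inside a region of each replicate list. Their signals ran from 60.3 to 141 with a median of 83.3 in replicate 1, and from 22.5 to 71.3 with a median of 41.3 in replicate 2. Among the strongest 990 regions, 3.30% of each list, 14 of the 35 ranked in both replicates, 11 in replicate 1 alone, 8 in replicate 2 alone and 2 in neither. The 14 are 40% of the 35, beside 541 of all 990 optimal regions (54.6%). In replicate 1 it was 25 of 35 (71.4%) beside 84.6%, and in replicate 2 it was 22 of 35 (62.9%) beside 66.2%. The widest gap was at C33G3.t2, with rank 498 in replicate 1 and 6861 in replicate 2. Over all 524 regions, 416 summits (79.4%) fell in a region of replicate 1, 336 (64.1%) in one of replicate 2 and 25 in neither, compared with 74.9% and 56.7% over the whole pooled list. Spearman's rho between the replicates' signals was 0.46 across the 253 regions found in both, and 0.40 across 11496 of the whole list. Across the 35 optimal regions, which span a narrow range of signal, it was 0.04. These points share libraries and were chosen from a list pooled from both replicates.

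In each replicate list, taken by itself, regions inside tRNA genes were again the strongest. Replicate 1 had 510 regions near tRNA genes, of which 32 (6.27%) were among its strongest 990. Replicate 2 had 485, of which 38 (7.84%) were. With the summit inside the gene it was 15 of 95 (15.8%) in replicate 1 and 12 of 81 (14.8%) in replicate 2. Beyond 200 and up to 500 bp it was 1 of 89 (1.12%) in replicate 1 and 3 of 75 (4%) in replicate 2. Median signal inside the gene was 1.62 times the median of the list in replicate 1 and 1.46 times in replicate 2, and beyond 500 bp it was 0.95 times in each.

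**Figure D4:**
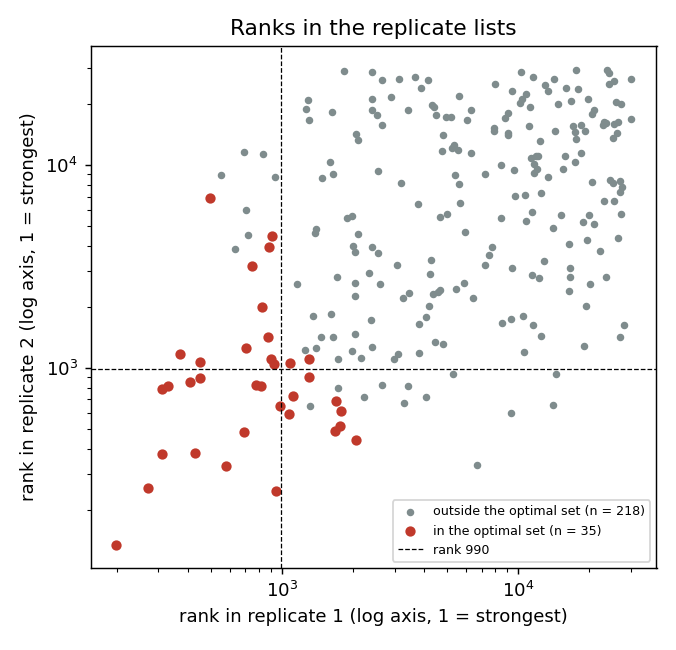
Rank in replicate 1 against rank in replicate 2 (log axes, 1 is the strongest) of the 253 regions near tRNA genes found in both lists. Red points are the 35 regions of the optimal set, of which 14 rank within the strongest 990 (dashed lines) of both replicates and 2 of neither.

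Seen from the genes, most tRNA genes had no strong region. Of 612 nuclear tRNA genes, 429 (70.1%) had a region within 1000 bp, 288 (47.1%) within 200 bp, and 37 (6.05%) an optimal region within 200 bp. For 183 genes no region was listed within 1000 bp. By chromosome, the share of genes with a region within 200 bp ran from 39.7% on V (31 of 78) to 65.6% on III (42 of 64). Chromosome X holds 276 of the 612 genes, and 124 of them (44.9%) had a region and 17 (6.16%) an optimal one. On chromosome I, 27 of 66 genes had a region and 2 an optimal one.

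No amino acid class held the signal alone. Optimal regions lay within 200 bp of genes for 15 of the amino acids, with the highest counts for serine (5 of 39 genes), leucine and lysine (4 of 39 and 4 of 46). These counts are of genes and not of separate regions. Among the serine genes, C53C7.t1 and C53C7.t2 share a region, as do F42A10.t1 and F42A10.t2, whereas the 4 leucine genes each had their own. The 37 genes share 32 regions. None was within 200 bp of the tRNA genes for asparagine (20 genes), cysteine (13), histidine (20), tryptophan (12) or tyrosine (19). Among amino acids with more than 1 gene, regions within 200 bp were listed for 26.3% of tyrosine genes (5 of 19) at the low end and 66.7% of aspartate genes (18 of 27) at the high end. The selenocysteine tRNA gene K11H12.t1, which decodes a stop codon, had a summit inside it with a signal of 49.3 and no region in replicate 2 at that summit. Counts this small leave wide margins.

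**Figure D5:**
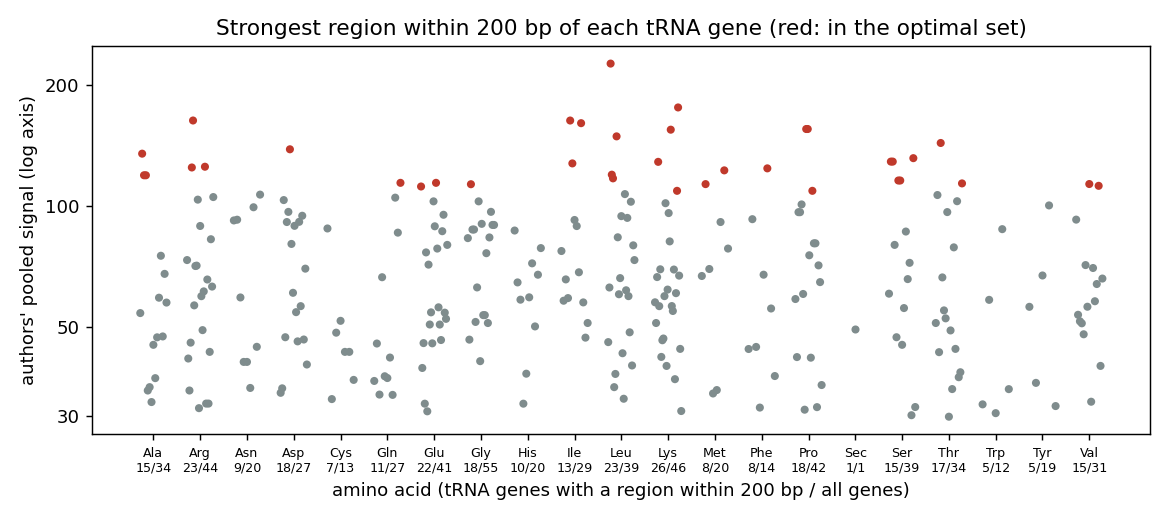
Signal (log axis) of the strongest region within 200 bp of each tRNA gene, grouped by amino acid, with the number of genes that had such a region and the number of genes below each name. Red points belong to the optimal set; red points appear for 15 amino acids, and genes that share a region each carry its point.

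Genes of identical sequence differed widely. The 612 genes hold 200 distinct sequences, and 20 of these occur in at least 10 copies, together 317 genes. In none of the 20 families did every copy have a region within 200 bp: the share ran from 27.3% to 70.0%, and 160 of the 317 genes had one. Optimal regions were found in 11 of the families and near 19 of the genes. In the tRNA-Lys family of 25 copies, 15 had a region within 200 bp. Their signals ran from 37.0 at M01E5.t1 through a median of 60.6 to 176 at W03G11.t1, while F39B1.t2, K11E4.t3, W10G11.t1 and Y105C5A.t1 of that family had none within 1000 bp. The tRNA-Gly family of 29 copies had 11 with a region, from 51.1 to 103, and none was optimal. By copy number the shares had no steady order, at 4.20% of single-copy genes with an optimal region within 200 bp, 9.76% with 2 to 5 copies, 6.49% with 6 to 15 and 5.13% with 16 or more. How reads that match several copies were handled is not given in the sources used here, and its part in these values was not tested.

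The 8 tRNA genes over 100 bp were all single-copy, and 7 of them encode tRNA-Leu. They were singled out after their values were seen. Regions within 200 bp were listed for 7 of the 8, with signals of 226 at C04A11.t1, 149 at C14B9.t2, 93.3 at F42F12.t1, 73.3 at ZK822.t1, 62.6 at B0285.t1, 43.0 at F02D10.t3 and 31.3 at F47E1.t3. F22B7.t1 had none. Their signals thus ran from the highest to nearly the lowest of all regions near tRNA genes.

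The internal promoter letters were about as frequent in tRNA genes with a strong region as in all tRNA genes. The B box letters GTTCGANNC, read on the sense strand, were in 72.1% of all 612 tRNA genes, in 72.2% of the 288 with a region within 200 bp, in 75.7% of the 37 with an optimal one and in 72.1% of the 183 with none. For the A box letters GCNNAGT the shares were 41.0%, 43.8%, 45.9% and 38.8%. A run of TTTT within 20 bases after the gene followed 98.4% of all tRNA genes and 37 of the 37. At the summit, 50 bases to each side and either strand, B box letters were in 63.6% of the windows inside a gene, 5.21% at 1 to 200 bp and 1.17% of all pooled windows. Windows inside a gene are largely tRNA sequence, so a high share there follows from the position of the summit. With the summit inside the gene, 12 of 68 windows with the letters were optimal (17.6%) and 7 of 39 without (17.9%). The letters mark a part of A boxes and of B boxes only, so their absence does not show that a gene lacks the box.

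The homeodomain core TAATTG was scarce at these summits. Of the 524 windows 21 held it on either strand (4.01%), beside 7.09% of all pooled windows. Of the 35 optimal ones 0 held it, which allows a share of up to 8.57% by the limit of 3 counts, beside 10.4% of all 990 optimal windows. An exact interval would reach higher than this limit and closer to that share. Inside tRNA genes 0 of 107 windows held TAATTG, up to 2.80% by the limit of 3 counts. There the window is largely tRNA sequence, with a mean GC content of 51.6% beside 41.3% over all windows. Beyond 200 and up to 500 bp it was 7 of 86 (8.14%), and beyond 500 bp 4 of 139 (2.88%), together 11 of 225 (4.89%). The word GAGCGC was in 3 of the 35 optimal windows (8.57%) beside 15.8% of all optimal ones. It was in 11 of the 107 windows inside tRNA genes (10.3%) and 2.77% of all pooled windows.

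Genes in tight clusters held no optimal region. With 3 or more tRNA genes within 1000 bp of the summit, 0 of 20 regions were optimal, which allows a share of up to 15% by the limit of 3 counts and 16.8% by the exact interval, although their median signal was 60.4. With 2 tRNA genes it was 6 of 103 (5.83%), and with 1 gene 29 of 401 (7.23%). The limit for the clusters lies above both other shares.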

How the data were processed

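The deposited ce11 lists of VAB-15 ChIP-seq regions were used: 1 per replicate (n = 2), 1 pooled, and the optimal set. The README texts deposited with them trace each list to an alignment and a control alignment. No aligner, peak caller, threshold or treatment of reads with several matches is stated there. Signal and −log10 q-value are the authors' values as deposited, with no stated scale for the signal. Depth is unknown.

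Genes came from Ensembl release 115, and names, amino acids and sequence from RefSeq (WBcel235, the assembly of ce11); all 612 nuclear tRNA genes matched by gene ID. Distance runs from summit to gene, 0 inside. A pooled region was found in a replicate where its summit lay in a region of that list. Promoter took precedence over exon, and exon over intron. Sequences are those of the 5 strongest regions within 200 bp of a tRNA gene, leaving out chromosome I and genes with an identical copy there. Motifs were exact letters, on both strands in summit windows.

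Members, lists and comparisons were chosen with earlier results of these data known. Named were the tRNA genes of the 20 strongest regions with host or nearest protein-coding genes, the 5 strongest inside a tRNA gene, the 5 strongest with no TSS within 1000 bp, and 2 on each side of the border of the optimal set; other names were chosen after their values were seen. With 1 group and no counts, no p-value was computed. A count of 0 was given a limit of 3 counts. The code was tested on simulated data. Python 3.11.15, pandas 2.3.3, numpy 2.4.6 and scipy 1.17.1 were used. The ce10 lists were not used.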

Additional observations from a re-analysis of the deposited data

How the results depend on the processing

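The count of 35 optimal regions kept within 1.5 times under distances of 200, 500 and 2000 bp (32 to 49). It also did so with distance from any base of the region and with removal of 62 regions that overlapped a stronger one. The distance sets are nested, and the share was less steady than the count. It was 32 of 299 within 200 bp (10.7%), 32 of 385 within 500 bp and 49 of 754 within 2000 bp. The main setting gave 35 of 524 (6.68%), beside 3.30% of the list. A single replicate list has no optimal set. Among its own strongest 990 regions, replicate 1 held 32 near tRNA genes and replicate 2 held 38. Leaving out regions with a TSS within 1000 bp gave 23 optimal regions, 61 with q at or under 0.01, 280 tRNA genes, 13 with TAATTG and a median signal of 49.7; this setting holds fewer regions by construction. With 495 strongest regions in place of 990, 9 lay near tRNA genes. They were 1.72% of the 524 beside 1.65% of the list, so the 524 as a whole showed no excess there. Of the 107 with the summit inside the gene it was 4 (3.74%). With 1980 strongest regions, 88 of the 524 were among them, 16.8% beside 6.60%. The median signal of 48.4 was 58.4 within 200 bp, 54.4 within 500 bp and 45.2 within 2000 bp, 47.1 from any base and 49.7 after that removal. Its ratio to the list median, 1.16, was 1.14 without replicate 2 and 1.10 without replicate 1. The count strong in both replicates, 14, was 24 within 2000 bp, where more regions enter, and 4 among the strongest 495. Of the optimal regions, 12 had no TSS within 2000 bp, against 23 within 1000 bp, and 19 had the summit inside the gene, against 32 within 200 bp. With 100 bp to each side of the summit, 50 windows held TAATTG, against 21. The number of tRNA genes with a region, 429, was 428 without replicate 2 and 406 without replicate 1. The planned breakdown by anticodon was not run, as the annotation used here gave amino acids only. No paired analysis was possible because there is 1 group. Without depth, weak regions cannot be told from background.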

Other observations

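B box letters also occurred at summits away from annotated tRNA genes. Of 271 pooled windows with GTTCGANNC and no tRNA gene within 1000 bp, 13 were in the optimal set (4.80%, exact Clopper-Pearson 95% interval 2.58 to 8.06), beside 3.30% of all pooled regions, and their median signal was 42.9. The strongest, named after their values were seen, lay 318 bp from the TSS of C18B12.4 on chromosome X (signal 238, pooled rank 110) and 1298 bp from that of W03C9.1 on chromosome II (signal 177). The latter lay 1383 bp from the tRNA-Val gene W03C9.t1, which had a separate optimal region with the summit inside it and a signal of 112.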
